A study of Mus musculus with 9 samples.

Results

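The genes described here are 38 mouse imprinted genes and genes that lie beside them in imprinted clusters, chosen by name. Array probes were assigned to them through the RefSeq accession that each probe carries in the scanner files. Named probes covered 37 of the 38, with 64 probes. No probe was matched to H19, a non-coding RNA of distal chromosome 7, which was not analysed here. Of 20660 genes named on the array, 14033 were bright enough to be tested, among them 21 of the listed genes.

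RNA came from mouse colon organoids, which are small three-dimensional epithelial structures grown in culture. One group of 3 samples was untreated (0 weeks), one had been kept with inflammatory reagents for 12 weeks, and one for 60 weeks. The labels name neither the reagents nor the mouse strain, age or genotype, and they do not say whether the 3 samples of a group were separate animals or cultures, so p-values measure only the spread between these samples. No untreated culture of 12 or 60 weeks is among the samples used here, so treatment and time in culture cannot be told apart. Each sample was hybridised to 1 Agilent single-colour array, and 3 arrays per group limit the precision.

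Imprinted genes are expressed mainly or only from the copy inherited from one parent. DNA methylation laid down in the egg or sperm marks an imprinting control region, and that mark is kept on one parental copy through later cell divisions. Many of these genes regulate growth before birth and are switched down in most tissues afterwards, and the neighbours in their clusters are often expressed from both copies. An expression array sums RNA from both parental copies and cannot tell them apart.

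Levels are log2 intensities relative to the 75th percentile of all non-control probes on the same array, where 0 is the brightness of that percentile and each unit is a doubling. Levels of different probes are not comparable, since probes differ in how strongly they bind. A gene was called changed when its Benjamini-Hochberg adjusted p, over all 14033 tested genes, was under 0.05 in limma's two-sided test on all 9 arrays. All adjusted p-values below are from that fit unless a fit over all probes is named. The 0, 12 and 60 weeks groups each enter 2 of the 3 comparisons, which are therefore not independent of each other.

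Between 49.2% and 52.7% of probes were well above background on an array. Replicates within 0 and 60 weeks correlated at 0.990 to 0.996 across genes. At 12 weeks, replicates 1 and 3 correlated at 0.992, but replicate 2 reached only 0.978 and 0.977 with them. This array stands apart from its group, and the calls are also given without it. All 9 epithelial markers, including Epcam, Cdx2 and Vil1, were well above background on all 9 arrays, and 3 of them (Krt20, Cdx2 and Vil1) rose at 12 weeks. Of the 6 immune cell markers on the array, Cd3e, Itgam and Csf1r were well above background on all 9 arrays, and Ptprc, Cd79a and Lyz2 on none. Also above background on no array were 7 of 13 fibroblast and mesenchyme markers, among them Pdgfra, Pdgfrb and Thy1. Among the rest, Col1a2 was above background on all 9 arrays, and Acta2 on all of 0 and 12 weeks and 2 of 60 weeks. Col1a1 was above background on all arrays of 0 and 60 weeks, and Vim and Fbln1 on those of 12 weeks only.

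Of the 37 probed genes, 13 were well above background on no array. They include Igf2, a fetal growth factor, Peg3 and its neighbours Zim1 and Usp29, Peg10, a retrotransposon-derived gene, the non-coding RNAs Meg3 and Kcnq1ot1, and Nnat, Nap1l5, Sgce, Calcr, Dcn and Klf14. Mest and Dlk1 were well above background on 12 weeks replicate 1 alone. Grb10, an adaptor that restrains insulin and growth factor signalling, was above background on 60 weeks replicate 3 alone. These 16 genes have no measured change in the present data. The other 21 were tested, which is 56.8% of the probed genes, against 67.9% of all genes named on the array. Of the 21, 17 were well above background on all 9 arrays.

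**Figure D1:**
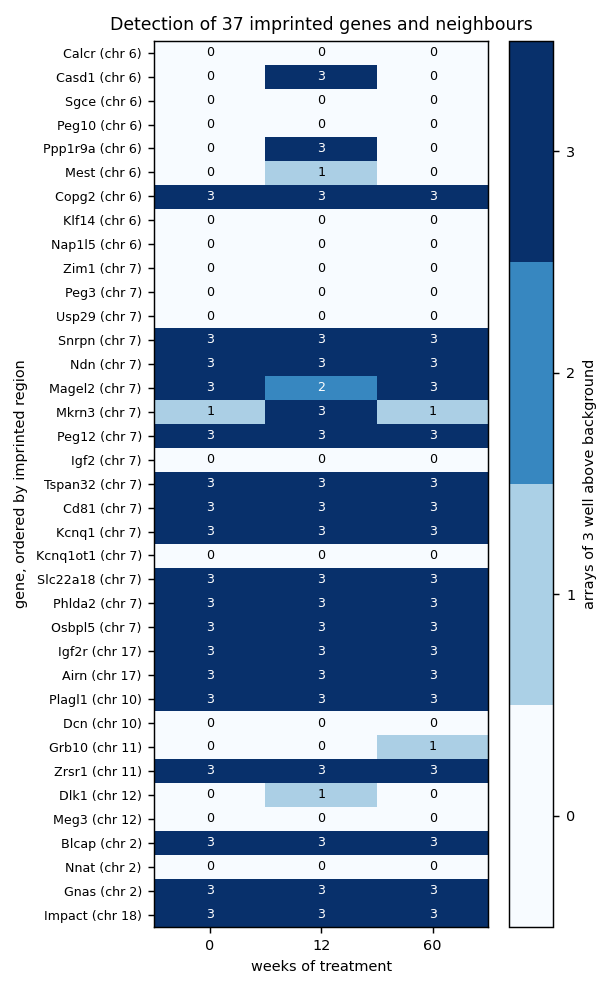
Detection of the 37 probed genes, one row per gene ordered by imprinted region, with the number of the 3 arrays of each group (0, 12 and 60 weeks) on which the probe that stood for the gene, or for an untested gene its most often detected probe, was well above background. Casd1 and Ppp1r9a read 0, 3 and 0, and 13 genes read 0 in every group.

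At 12 against 0 weeks, 8 of the 21 tested genes changed (38.1%), against 41.8% of all tested genes. Casd1, Ppp1r9a and Impact rose (3 of 21, with 19.1% of all tested genes called higher), and Igf2r, Tspan32, Snrpn, Zrsr1 and Kcnq1 fell (5 of 21, with 22.7% of all called lower). The arrays of 12 and 0 weeks did not overlap for 10 of the 21 (47.6%), against 54.6% of all tested genes. The median log2 change of the 21 was -0.27, against -0.06 for all tested genes. Casd1 and Ppp1r9a entered the test only through their 12 weeks arrays, so a difference was built into their selection and their p-values are no independent support. The same holds for every other gene or probe below that was above background in some groups only and has an "at least" fold. Less RNA of a gene per cell and fewer cells that express it cannot be told apart in these bulk samples. At 60 against 0 weeks, 3 of 21 changed (14.3%), against 32.8% of all tested genes, and the median was -0.21, against -0.04 for all. Airn rose and Plagl1 and Snrpn fell, where 16.7% of all tested genes were called higher and 16.1% lower. Arrays of 60 and 0 weeks did not overlap for 12 of the 21 (57.1%), against 56.5% of all. At 60 against 12 weeks, 9 of 21 changed (42.9%), against 38.3% of all genes, and the median was 0.04, against 0.02 for all. Igf2r, Airn, Zrsr1, Tspan32 and Cd81 rose, and Casd1, Ppp1r9a, Plagl1 and Impact fell, where 20.7% of all tested genes were called higher and 17.6% lower. Arrays of 60 and 12 weeks did not overlap for 11 of the 21 (52.4%), against 47.3% of all. limma's F test found a difference among the 3 groups for 11 of the 21 genes, where 56.7% of all tested genes passed it.

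The counts move with single arrays. Without 12 weeks replicate 2, 13 genes changed at 12 weeks (3 higher and 10 lower), 9 at 60 against 0 weeks and 11 at 60 against 12 weeks, where 52.8%, 42.9% and 50.4% of all tested genes were called. All 20 calls made with the 9 arrays were among them. The genes added at 12 weeks were Copg2 (-0.85), Plagl1 (-0.64), Gnas (-0.47), Slc22a18 (-0.42) and Cd81 (-0.34). Those added at 60 against 0 weeks were Phlda2 (-0.41), Impact (0.37), Tspan32 (-0.35), Cd81 (0.32), Kcnq1 (-0.25) and Ppp1r9a, which was above background in neither group. Their fitted values were the same with all 9 arrays, and only the estimate of the spread had changed. Without that array Igf2r changed by -1.15, Tspan32 by -1.08, Zrsr1 by -0.74, Kcnq1 by -0.42 and Impact by 1.22 at 12 against 0 weeks. Without 0 weeks replicate 1, or without 12 weeks replicate 3, 5 changed at 12 weeks, with 32.5% and 32.3% of all genes called. Without 12 weeks replicate 1, 6 changed at 60 against 0 weeks, and without 12 weeks replicate 3, 5 did, with 33.0% and 31.4% of all genes called. A fit to the 0 and 60 weeks arrays alone called 10 at 60 weeks, of which 3 were higher and 7 lower, and called 41.5% of all tested genes.

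**Figure D2:**
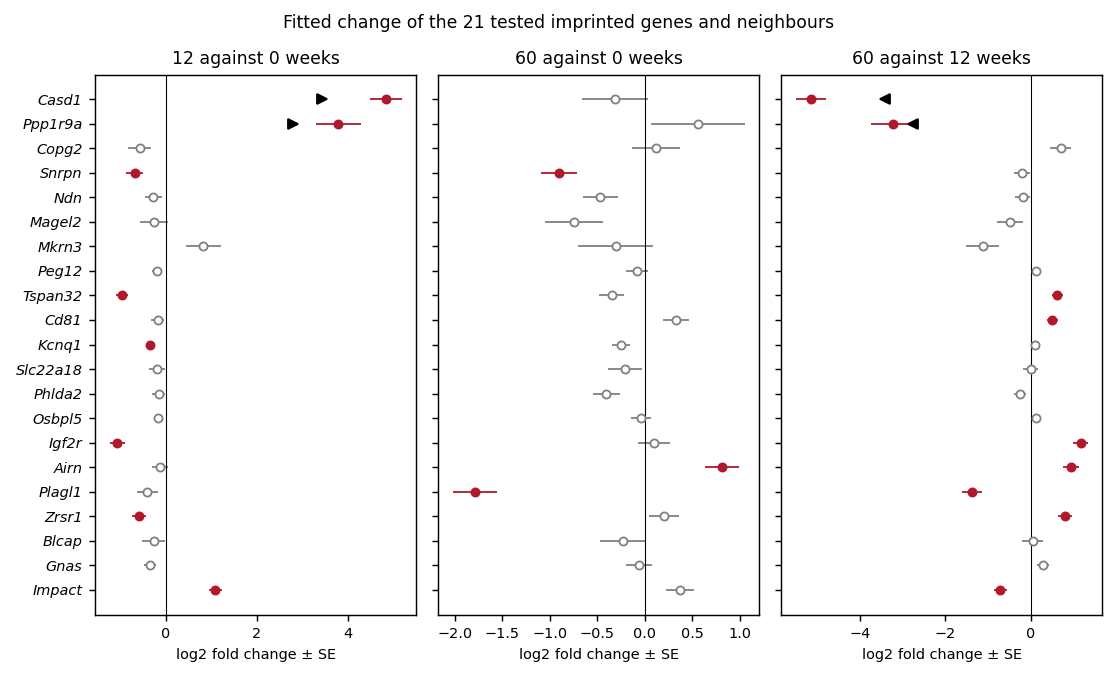
Fitted log2 fold change ± SE of the 21 tested genes in each comparison, with filled red points for changes with an adjusted p under 0.05 and open grey points for the rest. Black triangles at Casd1 and Ppp1r9a mark the smallest change that the background limit allows, and Plagl1 lies farthest to the left at 60 against 0 weeks, at -1.79.

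**Figure D3:**
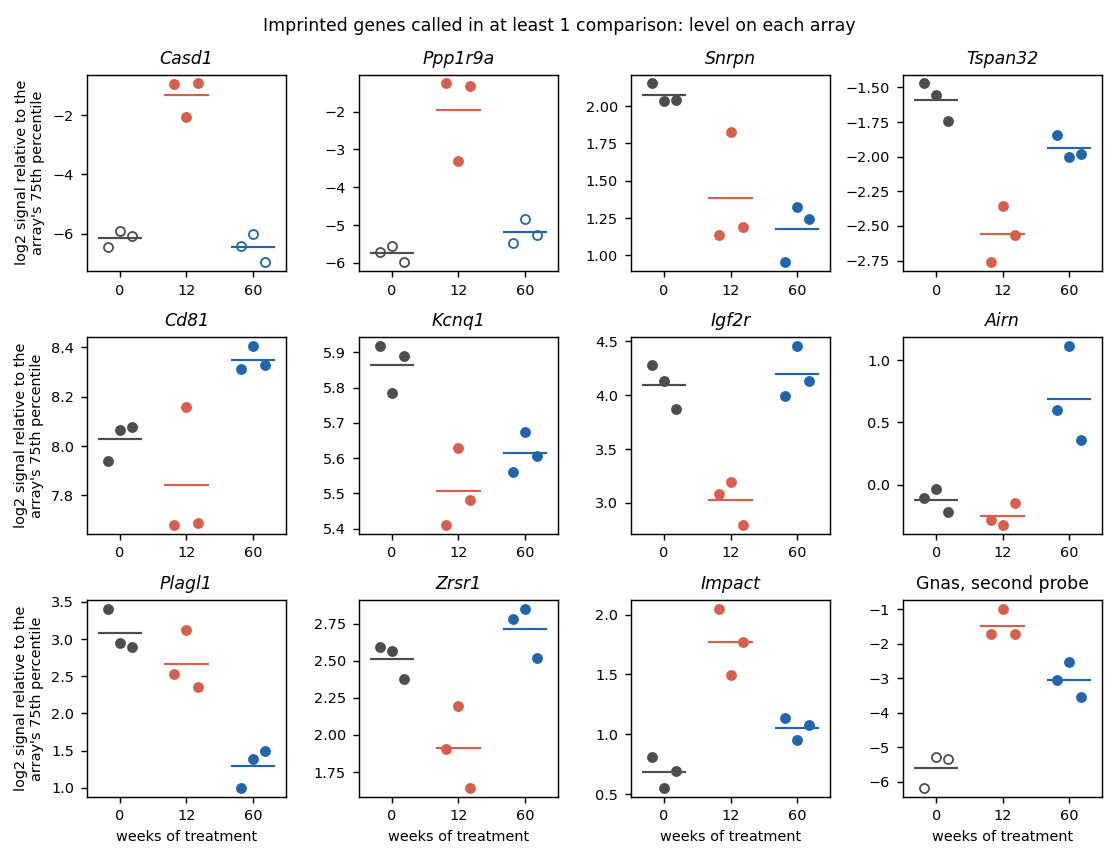
Level on each of the 9 arrays (points, with open points where the probe was not well above background) and group mean (line) of the 11 genes that changed in at least 1 comparison and, in the last panel, of a second Gnas probe. Casd1 and Ppp1r9a are filled at 12 weeks only, and 12 weeks replicate 2, the middle point, is the lowest of its group for both.

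Of the called changes, the 2 largest by fitted value were in the imprinted region of proximal chromosome 6. Casd1 encodes an enzyme that adds acetyl groups to sialic acids. Its levels were -6.45, -5.90 and -6.07 at 0 weeks, -0.93, -2.04 and -0.93 at 12 weeks, then -6.41, -6.00 and -6.95 at 60 weeks. All 3 arrays at 12 weeks were far above the other 6, none of which was well above background. Casd1 was therefore at least 10.8-fold higher at 12 than at 0 weeks (adjusted p = 2.49e-05) and at least 10.7-fold lower at 60 than at 12 weeks (adjusted p = 2.41e-05). The fitted log2 changes were 4.84 ± 0.35 and -5.15 ± 0.35 (SE).

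Ppp1r9a encodes neurabin, an actin-binding scaffold for protein phosphatase. It measured -5.72, -5.54 and -5.98 at 0 weeks, -1.25, -3.29 and -1.32 at 12 weeks, then -5.46, -4.84 and -5.27 at 60 weeks. Here too only the 12 weeks arrays were well above background, with no overlap, and replicate 2 was the dimmest of the 3. Ppp1r9a was at least 6.89-fold higher at 12 than at 0 weeks (adjusted p = 0.000631) and at least 6.79-fold lower at 60 than at 12 weeks (adjusted p = 0.00182). Without 12 weeks replicate 2, the fitted rises at 12 weeks were larger, at 5.21 for Casd1 and 4.46 for Ppp1r9a. After normexp background correction, which adds an offset that compresses dim signals, the rises were 1.77 and 1.66 and both were still called. Each gene has a second probe, which was well above background only on 12 weeks replicate 1.

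Detection on all 3 arrays at 12 weeks and on none at 0 and 60 weeks was found for 128 of the 14033 tested genes (0.912%). Of the fibroblast and mesenchyme markers, Vim (vimentin) and Fbln1 (fibulin) had the same pattern. Vim measured -2.71, -1.86 and -2.92 at 12 weeks, at least 4.73-fold above 0 weeks, and Fbln1 measured -4.66, -3.98 and -3.98. Both were tested only because they were bright at 12 weeks. Within 12 weeks, Vim was highest in replicate 2, where Casd1 and Ppp1r9a were lowest. Col1a1, a fibrillar collagen, went the other way and was well above background at 0 and 60 weeks only, at least 2.88-fold lower at 12 weeks. The summed signal of the 13 mesenchyme markers, in units of the 75th percentile, was 0.377 to 0.467 at 0 weeks, 0.437 to 0.647 at 12 weeks and 0.348 to 0.450 at 60 weeks. Among the epithelial markers, Krt20, a keratin of differentiated colon cells, measured 2.35, 2.21 and 1.97 at 0 weeks, 4.70, 2.59 and 5.18 at 12 weeks, then 0.68, 1.05 and 0.88 at 60 weeks. It was highest at 12 weeks (1.98 above 0 weeks, adjusted p = 0.0236) and within 12 weeks lowest in replicate 2, as were Casd1 and Ppp1r9a. Cdx2 rose by 0.82 (adjusted p = 0.0126) and Vil1 by 0.52 (adjusted p = 0.00873) at 12 weeks, also with replicate 2 lowest. The other epithelial markers, none of them called at 12 against 0 weeks, did not share this order. Krt8, Krt18 and Krt19 were highest in replicate 2 at 12 weeks, and for Epcam, Cdh1 and Cldn7 replicate 2 lay in the middle. The summed signal of the 9 epithelial markers was 1718 to 2030.4 at 0 weeks, 1719 to 1937 at 12 weeks and 1826 to 2023 at 60 weeks. That of the 6 immune cell markers was 16.6 to 23.4, 24.3 to 47.9 and 27.3 to 34.4, and of these Csf1r alone was called, lower at 60 weeks. The brightest probe weighs most in such a sum, here Itgam, which was not called at 12 against 0 weeks (adjusted p = 0.114). The part of mesenchymal, immune or differentiated epithelial cells in the change of Casd1 and Ppp1r9a was not tested.

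The promoters of these 2 genes are shown because the genes moved together. The stretches are the bases just before each annotated start in RefSeq, build GRCm38.p6, plus strand, at chr6:4600661-4600910 for Casd1 and chr6:4902725-4902871 for Ppp1r9a. Capitals mark CG, the dinucleotide at which imprints are methylated.
Casd1: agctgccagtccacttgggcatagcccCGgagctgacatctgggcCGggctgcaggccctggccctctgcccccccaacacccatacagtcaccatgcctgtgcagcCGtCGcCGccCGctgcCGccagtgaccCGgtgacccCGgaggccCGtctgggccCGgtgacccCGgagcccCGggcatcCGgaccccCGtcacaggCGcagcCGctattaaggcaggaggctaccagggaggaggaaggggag
Ppp1r9a: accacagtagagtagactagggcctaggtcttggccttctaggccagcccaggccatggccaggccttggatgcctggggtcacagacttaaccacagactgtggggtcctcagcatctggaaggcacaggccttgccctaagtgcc
The Casd1 stretch of 250 bases holds 17 CG, and 76.5% of all 32851 promoters in the table hold fewer over the same length. The Ppp1r9a stretch was cut at the gene's annotated start, which left 147 bases, and these hold no CG. The bases that were cut off are not in its counts, so its CG count cannot be set against that of Casd1. The letters TGCCGC, the core read by the imprint-protecting factor ZFP57, were searched on both strands and occur 1 time in the Casd1 stretch. They occur in 8.68% of all promoters in the table and in 10 of 49 promoters of the 31 listed genes that have one. The AP-1 letters TGANTCA, also searched on both strands, occur in 6.75% of all promoters, in 1 of those 49 and in neither stretch. TGCCGC contains a CG, and the promoters of the listed genes hold a median of 10 CG, against 6 over all promoters. A match is a description of the sequence only.

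Sgce and Peg10, which lie between Casd1 and Ppp1r9a and share one control region, were not well above background on any array. Col1a2, the neighbour before Casd1, had a log2 change of 0.01 at 12 against 0 weeks. Of 14 other tested genes in this stretch, 1 rose and 7 fell at 12 weeks, against 19.1% and 22.7% of all tested genes. The median log2 change of the 14 was -0.53. The gene that rose was Dync1i1, a dynein subunit, at 2.79 ± 0.39 (SE, adjusted p = 0.00085), and it stood higher still at 60 weeks (6.04 ± 0.39, adjusted p = 1.48e-05). The median of the 680 tested genes on chromosome 6 was -0.13 at 12 weeks.

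**Figure D4:**
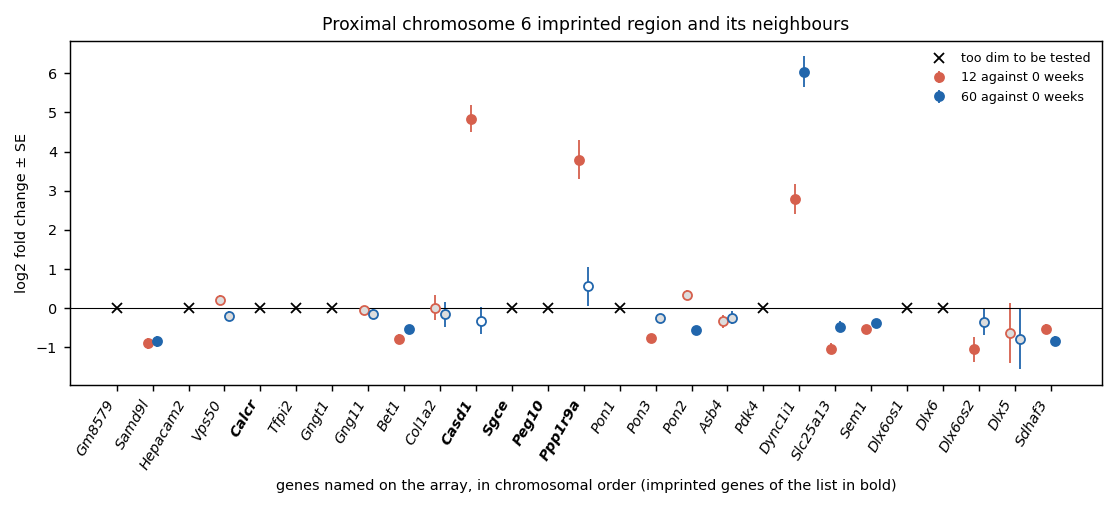
Fitted log2 fold change ± SE against 0 weeks of genes in and around the proximal chromosome 6 imprinted region, in chromosomal order, at 12 weeks (red) and 60 weeks (blue), with solid points where the adjusted p is under 0.05 and crosses for genes too dim to be tested. Casd1 and Ppp1r9a stand at 4.84 and 3.79 at 12 weeks, with the untested Sgce and Peg10 between them, and Dync1i1 is high at both times.

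On chromosome 17, Igf2r and Airn form a sense and antisense pair. Igf2r encodes the receptor that takes up IGF2 for degradation and carries lysosomal enzymes. Airn is a long non-coding RNA that starts inside Igf2r on the other strand and silences it on the paternal chromosome in many tissues. Igf2r measured 4.28, 4.13 and 3.87 at 0 weeks, 3.08, 3.20 and 2.80 at 12 weeks, then 3.99, 4.45 and 4.13 at 60 weeks. The 12 weeks arrays lay below all others, while 0 and 60 weeks overlapped. Igf2r fell by 1.07 ± 0.17 (SE) on the log2 scale at 12 weeks (adjusted p = 0.00161) and rose by 1.17 ± 0.17 from 12 to 60 weeks (adjusted p = 0.00138). The difference between 60 and 0 weeks was 0.10 ± 0.17 (adjusted p = 0.688).

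Airn measured -0.11, -0.03 and -0.22 at 0 weeks, -0.28, -0.32 and -0.15 at 12 weeks, then 0.60, 1.11 and 0.36 at 60 weeks. All 60 weeks arrays lay above the other 6, and the 0 and 12 weeks arrays overlapped. Airn rose by 0.81 ± 0.18 (SE) at 60 against 0 weeks (adjusted p = 0.00988) and by 0.94 ± 0.18 at 60 against 12 weeks (adjusted p = 0.00481). Its second probe rose by 0.99 and 1.08 in a fit over all probes (adjusted p = 0.00513 and 0.00362). With slide row as a block, the rise at 60 against 0 weeks was 0.63 and missed the threshold (adjusted p = 0.0577). So at 12 weeks Igf2r fell while the Airn change was -0.13 (adjusted p = 0.576), and at 60 weeks Airn was up while Igf2r was within its 0 weeks range or above it. The files give neither the sequence nor the strand of the probes.

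The stretches before both starts are shown because the start of Airn lies within Igf2r. They are from RefSeq, build GRCm38.p6, at chr17:12769707-12769956 on the minus strand for Igf2r and chr17:12741061-12741310 on the plus strand for Airn, with CG in capitals.
Igf2r: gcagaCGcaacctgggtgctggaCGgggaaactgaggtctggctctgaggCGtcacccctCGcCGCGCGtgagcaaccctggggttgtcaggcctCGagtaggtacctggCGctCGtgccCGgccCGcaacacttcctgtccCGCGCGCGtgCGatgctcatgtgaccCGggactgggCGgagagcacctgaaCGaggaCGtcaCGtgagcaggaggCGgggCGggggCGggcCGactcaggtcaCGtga
Airn: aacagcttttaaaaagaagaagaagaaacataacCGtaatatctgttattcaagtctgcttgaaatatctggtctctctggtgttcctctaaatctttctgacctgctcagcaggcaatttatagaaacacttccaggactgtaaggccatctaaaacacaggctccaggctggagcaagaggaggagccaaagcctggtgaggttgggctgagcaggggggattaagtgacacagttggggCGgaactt
The Igf2r stretch holds 27 CG, more than 91.4% of all promoters, and the Airn stretch holds 2, more than 18.8%. The median over all promoters in the table is 6. Neither stretch holds TGCCGC.

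Plagl1, on chromosome 10, encodes a zinc finger transcription factor that slows cell division. It measured 3.40, 2.94 and 2.90 at 0 weeks, 2.53, 3.12 and 2.36 at 12 weeks, then 1.002, 1.39 and 1.49 at 60 weeks. Every 60 weeks array lay more than a log2 unit below the lowest 0 weeks array, and the 0 and 12 weeks arrays overlapped. Plagl1 fell by 1.79 ± 0.23 (SE) on the log2 scale at 60 against 0 weeks (3.46-fold, adjusted p = 0.000751) and by 1.37 ± 0.23 at 60 against 12 weeks (adjusted p = 0.00293). The median change of the 652 tested genes on chromosome 10 was 0.28 at 60 against 0 weeks, in the opposite direction. Without 12 weeks replicate 2, Plagl1 was also lower at 12 against 0 weeks (-0.64, adjusted p = 0.0296), against -0.42 with all arrays (adjusted p = 0.183).

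Plagl1 has 4 probes above background, and they did not fall equally. In the fit over all probes, 2 of them changed by -1.79 and -1.80 at 60 against 0 weeks (adjusted p = 0.00123 and 0.00121). The other two changed by -0.64 and -0.35 and missed the threshold (adjusted p = 0.0521 and 0.130). With the mean over its probes, Plagl1 changed by -1.15 at 60 against 0 weeks, still called. The promoter entry of Plagl1 is shown because its imprint lies at a promoter. It is at chr10:13090582-13090831, plus strand, GRCm38.p6, from RefSeq, and which of the gene's promoters is active here was not measured.
Plagl1: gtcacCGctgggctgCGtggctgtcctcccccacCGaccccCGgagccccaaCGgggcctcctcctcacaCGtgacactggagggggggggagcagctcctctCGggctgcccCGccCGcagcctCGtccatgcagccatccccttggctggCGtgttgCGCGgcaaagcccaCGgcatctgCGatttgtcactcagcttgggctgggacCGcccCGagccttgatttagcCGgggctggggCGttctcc
It holds 19 CG, more than 80.3% of all promoters, and 1 match to TGCCGC.

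The Snrpn region of chromosome 7 is the counterpart of the human Prader-Willi region, with paternally expressed genes under one control region. Snrpn encodes a protein of the splicing machinery. It measured 2.15, 2.04 and 2.04 at 0 weeks, 1.14, 1.82 and 1.19 at 12 weeks, then 0.96, 1.33 and 1.25 at 60 weeks. The 0 weeks arrays lay above the other 6, and the 12 and 60 weeks arrays overlapped. Snrpn fell by 0.69 ± 0.19 (SE) at 12 weeks (adjusted p = 0.0194) and by 0.90 ± 0.19 at 60 weeks (adjusted p = 0.00786). Its other two probes changed by -0.97 and -1.07 at 60 weeks, both called in the fit over all probes. At 12 weeks they changed by -0.66 (adjusted p = 0.0486) and -0.65 (adjusted p = 0.120, not called). The fall at 12 weeks missed the threshold when any 1 of the 0 weeks arrays, or 12 weeks replicate 1 or 3, was left out, with adjusted p up to 0.0665, and was -0.91 without 12 weeks replicate 2 (adjusted p = 0.000711).

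The other listed genes of this region (Ndn, Magel2, Mkrn3 and Peg12) were not called. Ndn, which encodes the growth suppressor necdin, had means of -3.01 ± 0.10, -3.29 ± 0.29 and -3.48 ± 0.28 (SD, n = 3) at 0, 12 and 60 weeks. Magel2, a partner of ubiquitin ligases, had -3.60 ± 0.27, -3.87 ± 0.62 and -4.35 ± 0.31. All 60 weeks arrays of both genes lay below all 0 weeks arrays, with differences of -0.47 (adjusted p = 0.0809) and -0.75 (adjusted p = 0.0955). Peg12, related to the Wnt pathway's Frat genes, had means of -1.23 ± 0.13, -1.44 ± 0.07 and -1.32 ± 0.15.

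Mkrn3 encodes a ubiquitin ligase known for holding back puberty. It measured -4.06, -4.66 and -5.05 at 0 weeks, -3.91, -3.49 and -3.90 at 12 weeks, then -4.35, -5.80 and -4.53 at 60 weeks. The 12 weeks arrays lay above all others, and only they were all above background, but the difference of 0.82 from 0 weeks missed the threshold (adjusted p = 0.125). This probe was above background on 1 of 3 arrays at 0 and at 60 weeks and passed the filter only through 12 weeks. A higher level there was thus favoured by its selection. A second probe was above background on 2 of 3 arrays at 12 weeks and on none at 0 weeks. It was at least 1.54-fold higher at 12 weeks, but it passed the filter only through that group, so this adds no support to the difference of the first probe.

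Distal chromosome 7 holds genes that depend on the Kcnq1ot1 RNA together with neighbours at its edge. Tspan32, a tetraspanin of blood cells, measured -1.47, -1.56 and -1.74 at 0 weeks, -2.76, -2.36 and -2.57 at 12 weeks, then -1.84, -2.00 and -1.98 at 60 weeks. The 3 groups did not overlap, with 12 weeks lowest and 60 weeks between. Tspan32 fell by 0.97 ± 0.13 (SE) at 12 weeks (adjusted p = 0.000652) and rose by 0.62 ± 0.13 from 12 to 60 weeks (adjusted p = 0.00684). A second probe was not well above background at 12 weeks and was at least 1.64-fold lower there than at 0 weeks. The summed signal of the immune markers on the array was 16.6 to 23.4 at 0 weeks, 24.3 to 47.9 at 12 weeks and 27.3 to 34.4 at 60 weeks, in units of the 75th percentile. Itgam, the brightest of these markers, weighs most in that sum. At 12 against 0 weeks Itgam changed by 0.69 (adjusted p = 0.114), Csf1r by 0.25 (adjusted p = 0.0599) and Cd3e by -0.20 (adjusted p = 0.712), none of them called. The part of immune cells in the Tspan32 values was not tested.

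Kcnq1 encodes a potassium channel of epithelia and heart. It measured 5.92, 5.78 and 5.89 at 0 weeks, 5.41, 5.63 and 5.48 at 12 weeks, then 5.56, 5.68 and 5.61 at 60 weeks. All 0 weeks arrays lay above the others. Kcnq1 fell by 0.36 ± 0.09 (SE) at 12 weeks (adjusted p = 0.0165), and its change of -0.25 at 60 weeks missed the threshold (adjusted p = 0.0738). The 12 weeks call was lost without 0 weeks replicate 1 or 3 or 12 weeks replicate 1 or 3, with adjusted p up to 0.0588.

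Cd81, a widely expressed tetraspanin, measured 7.94, 8.07 and 8.08 at 0 weeks, 7.68, 8.16 and 7.69 at 12 weeks, then 8.31, 8.40 and 8.33 at 60 weeks. The 60 weeks arrays lay above all others, and 12 weeks replicate 2 lay above all 0 weeks arrays while the other two lay below them. Cd81 rose by 0.51 ± 0.14 (SE) at 60 against 12 weeks (adjusted p = 0.0208). After quantile normalization the change was 0.17 (adjusted p = 0.212) and the difference of 12 from 0 weeks turned from -0.18 to 0.20, neither of them called. The 60 weeks call was also lost in a fit to the 2 groups alone and without 12 weeks replicate 1 or 3 or 60 weeks replicate 1 or 2.

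The remaining listed genes of distal chromosome 7 (Phlda2, Slc22a18 and Osbpl5) were not called. Phlda2, which restrains placental growth, had means of -0.01 ± 0.15, -0.17 ± 0.24 and -0.42 ± 0.07 (SD, n = 3) at 0, 12 and 60 weeks, and its 60 weeks difference of -0.41 had an adjusted p of 0.0558. Slc22a18, a membrane transporter, had 4.74 ± 0.10, 4.54 ± 0.38 and 4.53 ± 0.05. Osbpl5, a lipid transfer protein, had 5.80 ± 0.11, 5.63 ± 0.13 and 5.76 ± 0.05. Among 81 other tested genes in and around this cluster, 12 rose and 17 fell at 12 weeks, against 19.1% and 22.7% of all tested.

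Zrsr1, on chromosome 11, is a retrogene related to the splicing factor U2AF that lies inside Commd1. It measured 2.59, 2.57 and 2.37 at 0 weeks, 1.90, 2.19 and 1.65 at 12 weeks, then 2.78, 2.85 and 2.52 at 60 weeks. The 12 weeks arrays lay below all others. Zrsr1 fell by 0.60 ± 0.16 (SE) at 12 weeks (adjusted p = 0.0167) and rose by 0.80 ± 0.16 from 12 to 60 weeks (adjusted p = 0.00561). The call at 12 against 0 weeks was lost without 0 weeks replicate 1 or 2 or 12 weeks replicate 3, with adjusted p up to 0.0579. Its host gene Commd1, a regulator of NF-kB and copper, fell by 0.38 at 12 weeks (adjusted p = 0.00596) and by 0.39 at 60 weeks (adjusted p = 0.00644).

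Impact, on chromosome 18, encodes an inhibitor of the amino acid starvation kinase GCN2. It measured 0.81, 0.55 and 0.69 at 0 weeks, 2.05, 1.50 and 1.77 at 12 weeks, then 1.14, 0.95 and 1.08 at 60 weeks. The groups did not overlap, with 12 weeks highest and 60 weeks between. Impact rose by 1.08 ± 0.15 (SE) at 12 weeks (2.12-fold, adjusted p = 0.000776) and fell by 0.71 ± 0.15 from 12 to 60 weeks (adjusted p = 0.00693). At 60 weeks it was 0.37 above 0 weeks (adjusted p = 0.0883). Its second probe gave 0.92 at 12 weeks (adjusted p = 0.124 in the fit over all probes). In that fit this probe gave -1.06 from 12 to 60 weeks (adjusted p = 0.0913) and -0.14 at 60 against 0 weeks (adjusted p = 0.836). It was above background on 2 of 3 arrays at 0 and at 60 weeks.

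Gnas, on chromosome 2, encodes the stimulatory G protein subunit that links receptors to cyclic AMP, and the locus makes several transcripts from separate promoters, some of them imprinted. The probe that stood for the gene measured 6.88, 7.09 and 6.98 at 0 weeks, 6.50, 6.90 and 6.53 at 12 weeks, then 6.87, 7.06 and 6.84 at 60 weeks. The groups overlapped in every comparison and none was called (adjusted p = 0.0682 at 12 against 0 weeks). A second probe, assigned to another Gnas transcript record, measured -6.18, -5.29 and -5.35 at 0 weeks, -1.72, -0.99 and -1.72 at 12 weeks, then -3.06, -2.52 and -3.54 at 60 weeks.

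This second Gnas probe was well above background on all arrays of 12 and 60 weeks and on none of 0 weeks, and its groups did not overlap. It was at least 9.62-fold higher at 12 than at 0 weeks and at least 3.24-fold higher at 60 weeks, differences that its passing the filter through those groups had built in. Between those groups it fell by 1.57 ± 0.34 (SE) from 12 to 60 weeks (adjusted p = 0.0117 in the fit over all probes). Another Gnas probe was above background on no array. Which Gnas transcript or strand the second probe reads was not determined.

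**Figure D5:**
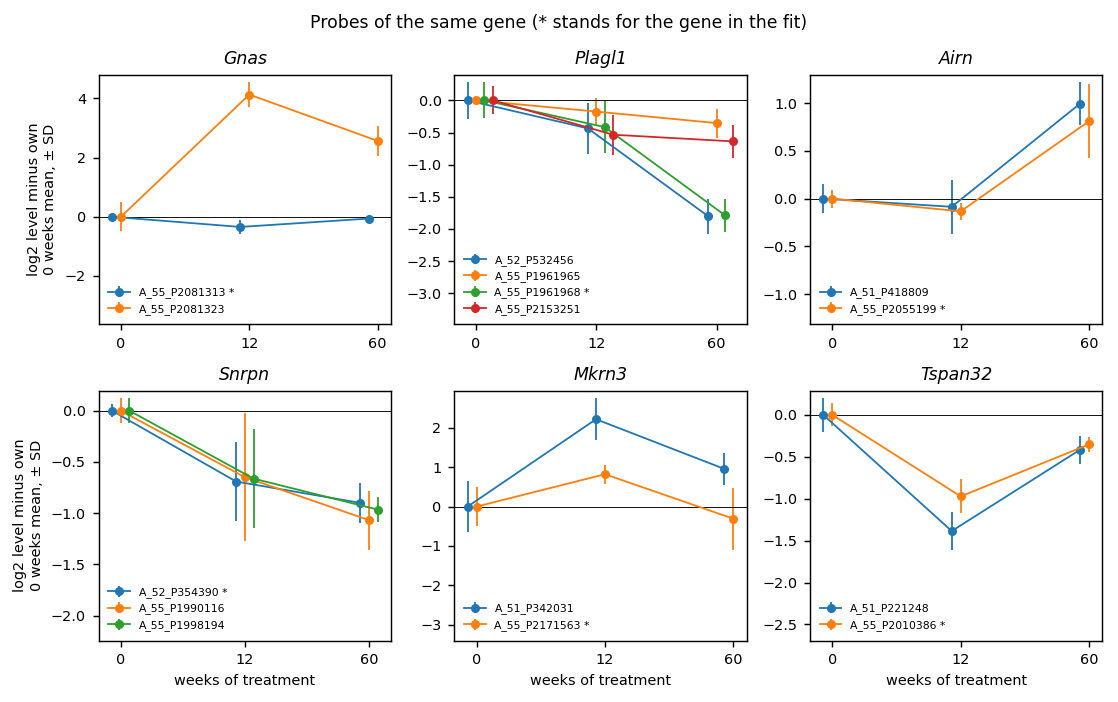
Mean log2 level ± SD (n = 3 arrays) of each probe of 6 genes that passed the filter on dim probes, after subtraction of that probe's own 0 weeks mean, at 0, 12 and 60 weeks. An asterisk marks the probe that stands for the gene. The second Gnas probe lies at 4.13 at 12 weeks, a value set against a 0 weeks mean that was not above background (at least 3.27 by the background limit), while the first stays near 0, and only 2 of the 4 Plagl1 probes approach -1.8.

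The last 2 tested genes were not called in any comparison. Copg2, a subunit of the COPI vesicle coat that lies beside Mest, measured 3.33, 3.35 and 3.02 at 0 weeks, 2.47, 3.19 and 2.30 at 12 weeks, then 3.20, 3.73 and 3.12 at 60 weeks. Replicate 2 was the highest at 12 weeks. Copg2 differed by -0.58 at 12 against 0 weeks (adjusted p = 0.0988), and by -0.85 without that array (adjusted p = 0.00994). At 60 against 12 weeks it differed by 0.70 (adjusted p = 0.0599, under 0.05 in 5 of 22 alternatives), and its second probe by 0.74 (adjusted p = 0.0437 in the fit over all probes). Blcap, the host gene of Nnat, had means of 2.52 ± 0.14, 2.25 ± 0.49 and 2.29 ± 0.28 (SD, n = 3).

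Of 44 other imprinted or cluster genes listed for comparison, 28 were tested. At 12 against 0 weeks 7 rose and 6 fell, with a median log2 change of -0.22, and at 60 against 0 weeks 6 rose and 7 fell, also with a median of -0.22. Over all tested genes 19.1% rose and 22.7% fell at 12 weeks, and 16.7% rose and 16.1% fell at 60 weeks. Mcts2, a retrogene within H13, rose by 1.91 ± 0.12 (SE) at 12 weeks (adjusted p = 1.05e-05) and by 1.67 ± 0.12 at 60 weeks. Ampd3, an AMP deaminase, rose by 2.25 and 2.23, and Wars, the tryptophan tRNA synthetase, by 1.54 and 1.53, so that these 3 genes stayed up at 60 weeks. Ascl2, a transcription factor of intestinal stem cells, was above background at 12 weeks only and at least 5.54-fold higher there than at 0 weeks, and it too was tested only through its 12 weeks arrays.

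Of 22 regulators of DNA methylation and imprinted chromatin (methyltransferases and their cofactors, the Tet enzymes that oxidise methylated cytosine, and chromatin proteins), 20 were tested. At 12 against 0 weeks 6 fell, at 60 against 0 weeks 5 fell, and the rest did not pass the test. Over all tested genes 22.7% and 16.1% were called lower. The median changes of the 20 were -0.25 and -0.21. Dnmt3a, which lays down new methylation, measured 2.26, 2.14 and 1.98 at 0 weeks, 0.99, 1.12 and 0.78 at 12 weeks, then 1.66, 1.66 and 1.85 at 60 weeks. The groups did not overlap, and 12 weeks was lowest. Dnmt3a fell by 1.16 ± 0.12 (SE) at 12 weeks (adjusted p = 0.000216) and by 0.40 at 60 weeks (adjusted p = 0.0378). Uhrf1, which brings the maintenance methyltransferase to replicated DNA, fell by 1.02 ± 0.15 at 60 weeks (adjusted p = 0.00151), and Rbl1, a pocket protein of the cell cycle, by 1.12 ± 0.17 (adjusted p = 0.00177). Dnmt1 fell by 0.62 at 12 weeks (adjusted p = 0.00525) and by 0.70 at 60 weeks (adjusted p = 0.00365). Tet2, Tet3 and Smchd1 also fell at 12 weeks, by 0.58 (adjusted p = 0.0104), 0.95 (adjusted p = 0.0116) and 0.59 (adjusted p = 0.00874). Tet2, Tet3 and Smchd1 were not called at 60 against 0 weeks, and Tet2 rose by 0.84 from 12 to 60 weeks (adjusted p = 0.00238). Suz12, a Polycomb subunit, fell by 0.49 at 12 weeks (adjusted p = 0.00232) and by 0.28 at 60 weeks (adjusted p = 0.035). At 60 against 12 weeks 2 regulators rose and 4 fell, against 20.7% and 17.6% of all tested genes. Among the 4 was Dnmt3b, which fell by 1.28 (adjusted p = 0.00467) and was not called against 0 weeks. Methylation itself was not measured.

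Of 18 genes of the insulin-like growth factor axis, 12 were tested. At 12 against 0 weeks 4 rose and 2 fell, and at 60 against 0 weeks 2 rose and 4 fell, with medians of -0.28 and -0.41, where 41.8% and 32.8% of all tested genes were called. Igf2bp2, which binds Igf2 and other mRNAs, rose by 2.30 ± 0.16 (SE) at 12 weeks (adjusted p = 1.88e-05) and by 2.21 ± 0.16 at 60 weeks (adjusted p = 2.57e-05). Igfbp7, a secreted binding protein, was above background at 12 weeks only, at least 1.35-fold above 0 weeks. Igfbp6, which binds IGF2, fell by 0.96 and 0.74 at 12 and 60 weeks. Htra1, a protease that cleaves such binding proteins, was above background at 0 and 12 weeks and was at least 8.66-fold lower at 60 than at 0 weeks (adjusted p = 2.61e-05).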

How the data were processed

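Per the file headers, the authors quantified all arrays in Agilent Feature Extraction, version 10.7.3.1 (protocol GE1_107_Sep09; design build mm9:NCBI37:Jul2007), and deposited the background-subtracted intensity of each spot. The deposited value table holds a signal per probe (scale per array: 0.992 to 0.996 of its 75th percentile), with column medians of 0.0668, 0.0719, 0.0705 (0 weeks), 0.0619, 0.0681, 0.0733 (12 weeks) and 0.0673, 0.0695, 0.0582 (60 weeks). It is linear, not centred on genes, and served as an alternative.

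Flagged spots (117 to 163 of 59305 per array) were dropped, replicate spots were averaged per probe, and levels are log2 differences from the array's 75th percentile. Of 55681 probes, 27235 were named through a RefSeq table (GRCm38.p6) and 28446 were not. Probes well above background on at least 2 of 3 arrays of a group were kept, and the brightest stood for its gene. Group means were fitted with limma 3.58.1 (R 4.3.3, Python 3.11.15), which was tested on simulated data. "At least" folds set each dim array to its lowest value well above background. Normexp used median spot signals, since no mean signals were at hand. Alternatives varied background, scaling, filter, probe choice, blocks and arrays, and a fit over all 29894 kept probes was added after seeing the data.

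The genes, lists and tests were chosen with earlier results of these data known. Every listed gene is accounted for. Genes called in any comparison are given array by array, other tested ones briefly, and up to 4 genes with the lowest adjusted p are named per comparison list.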

Additional observations from a re-analysis of the deposited data

How the results depend on the processing

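Across 22 alternatives, 15 of the 20 called changes of the listed genes stayed called in every alternative that gave a value, and 18 of the uncalled changes passed in at least 1. Of the 5 that were lost at least once, Snrpn, Kcnq1 and Zrsr1 at 12 against 0 weeks were lost only in leave-one-out fits, and Airn at 60 against 0 weeks only with the slide row as a block. The number of listed genes called ranged from 5 to 13 at 12 against 0 weeks, from 3 to 9 at 60 against 0 weeks and from 8 to 11 at 60 against 12 weeks when single arrays were left out. At 60 against 0 weeks, in place of 3, quantile normalization and the mean over a gene's probes each called 5, and a fit to the 2 groups alone called 10. Over all tested genes, quantile normalization called 2370 higher and 2318 lower there, and the mean over probes 2295 and 2311. The main fit called 2341 and 2259, and the fit to the 2 groups alone 41.5% of all. The mean over probes reversed Gnas, to 1.89 at 12 weeks and 1.25 at 60 weeks, since it takes in the second probe. Over all tested genes, leaving out 1 array gave 4228 to 7405, 3195 to 6022 and 3624 to 7073 calls. With the replicate number as a block, 10, 4 and 10 listed genes were called in place of 8, 3 and 9. Over all tested genes that fit called 2654 higher and 3143 lower, 2257 and 2196, and 2790 and 2456. In the same order, the main fit called 2678 and 3182, 2341 and 2259, and 2905 and 2473. Deviations of same-numbered arrays correlated at -0.08 to 0.20, so the numbers were not taken to pair the samples. The slide block repeats the fit without 60 weeks replicate 3, the only array of its slide. All 0 weeks arrays lay in row 1 of their slide. Row 2 held 12 weeks replicates 2 and 3 and 60 weeks replicates 1 and 2, so row and group are partly confounded. Restricting to probes above background on all arrays leaves out Casd1, Ppp1r9a, Magel2 and Mkrn3. Having 3 arrays per group and signals near background limit what can be called.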
